A study of Mus musculus with 8 samples.

Results

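The genes of cholesterol synthesis, uptake and efflux were followed in the hippocampus of Tg6799 mice and their littermates. The group was set by name as 32 genes, chosen with earlier results of these data known. Counts of members beside the share of all genes are therefore descriptions. The group held 18 enzymes that build cholesterol, 5 regulators of the SREBP system, and 9 genes of cholesterol transport, storage, efflux and turnover. On the arrays 29 of the 32 genes had a probe set annotated to that gene alone, out of 18193 genes measured in the same way. Acat2, Soat1 and Nr1h2 were not analysed here. The 29 genes were read by 62 probe sets, and for the 18 genes with several probe sets the brightest over all 8 arrays stood for the gene.

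Cells make cholesterol from acetyl-CoA through mevalonate, the isoprenoid diphosphates, squalene and lanosterol. When sterol is scarce in the endoplasmic reticulum, SCAP carries the SREBP transcription factors to the Golgi for cleavage, and their released domain switches on the synthesis enzymes; when sterol is plentiful, the INSIG proteins hold SCAP back. The adult brain makes its own cholesterol behind the blood-brain barrier, moves it between astrocytes and neurons on lipoproteins that ABC transporters load, and removes it largely as 24-hydroxycholesterol.

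Tg6799 mice carry human transgenes with familial Alzheimer's disease mutations, driven by the neuronal Thy1 promoter, and develop amyloid deposits early. All arrays came from female mice, and RNA was taken from bulk hippocampus, so that fewer cells of a type and less RNA per cell cannot be told apart. There were 4 groups of 2 arrays: littermate controls at 4 months (LM4m) and at 8 months (LM8m), and mutant Tg6799 mice at 4 months (MT4m) and at 8 months (MT8m). The labels do not say whether an array held the RNA of 1 animal or of several, and a p-value here reflects only the variation from array to array, which may be technical. Levels are log2 expression values, on which a step of 1 is a doubling, and levels of different genes were not compared because probe sets differ in brightness.

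Promoters of 4 synthesis enzymes are printed to show where 2 known control sequences stand in them. Hmgcs1 is shown because it alone among the members with a listed promoter held the sterol regulatory element core, the SREBP site, and Idi1, Msmo1 and Nsdhl because they are among the enzymes with the clearest differences at 4 months. The sequences run from 250 bases before to 50 after the start of the RefSeq transcript in mouse build GRCm38.p6, 5′ to 3′ on the gene's own strand. Capitals mark the core, TCACNCCAC or on the other strand GTGGNGTGA, and the box CCAAT, which on the other strand reads ATTGG and is bound by NF-Y, a factor known to act beside SREBP. The matches do not overlap.
Hmgcs1, chr13:119690101-119690400, plus strand: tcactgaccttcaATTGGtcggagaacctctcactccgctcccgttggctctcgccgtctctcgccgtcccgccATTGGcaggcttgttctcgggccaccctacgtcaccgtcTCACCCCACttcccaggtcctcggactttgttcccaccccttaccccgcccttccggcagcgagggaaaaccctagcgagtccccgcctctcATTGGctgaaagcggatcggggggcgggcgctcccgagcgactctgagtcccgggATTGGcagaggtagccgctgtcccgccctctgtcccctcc
Idi1, chr13:8885356-8885655, plus strand: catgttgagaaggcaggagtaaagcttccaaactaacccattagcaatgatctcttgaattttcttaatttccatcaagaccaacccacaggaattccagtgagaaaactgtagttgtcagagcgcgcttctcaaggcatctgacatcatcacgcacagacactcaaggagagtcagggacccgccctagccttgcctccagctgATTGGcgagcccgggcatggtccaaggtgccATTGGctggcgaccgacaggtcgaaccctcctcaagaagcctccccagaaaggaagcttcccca
Msmo1, chr8:64733529-64733828, minus strand: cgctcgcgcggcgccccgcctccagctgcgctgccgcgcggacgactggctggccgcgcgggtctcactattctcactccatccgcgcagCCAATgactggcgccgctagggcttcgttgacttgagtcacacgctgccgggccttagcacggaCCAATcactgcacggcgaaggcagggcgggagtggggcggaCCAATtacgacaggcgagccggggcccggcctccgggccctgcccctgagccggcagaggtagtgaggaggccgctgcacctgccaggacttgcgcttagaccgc
Nsdhl, chrX:72918271-72918570, plus strand: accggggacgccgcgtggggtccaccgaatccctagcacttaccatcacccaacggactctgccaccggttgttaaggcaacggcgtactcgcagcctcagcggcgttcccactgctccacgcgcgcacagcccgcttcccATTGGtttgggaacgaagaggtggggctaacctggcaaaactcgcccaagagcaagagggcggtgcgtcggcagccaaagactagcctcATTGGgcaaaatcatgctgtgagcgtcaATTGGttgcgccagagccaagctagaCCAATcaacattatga

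A promoter was listed for 26 of the 32 members, with 35 promoters in all; Fdps, Stard4, Sqle, Fdft1, Abcg1 and Npc1 were not among them. CCAAT or its reverse was found in at least 1 promoter of 14 of the 15 listed synthesis enzymes, of 4 of the 5 regulators and of 3 of the 6 transport genes. Over all genes in the promoter table the share was 41.1%, and over all promoters 37.4%. The sterol regulatory element core stood in 1.24% of all promoters and, among the members, in Hmgcs1 alone, whose promoter also held 4 CCAAT matches. A match is a description of the letters and not a measured binding site.

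Before the members are compared, 1 array has to be set apart. Thy1, whose promoter drives the transgenes, read 11.73 and 11.82 in MT4m and 11.79 in MT8m replicate 2, but 9.90 in the library labelled MT8m replicate 1, within the 9.53 to 9.96 of the littermates. Cst7, a gene of plaque-associated microglia, and Gfap, of reactive astrocytes, were likewise at littermate level on that array. Every comparison was therefore also run with that array left out. The signal difference between the 3′ and 5′ probe sets of the Gapdh control, a sign of RNA degradation when large, was highest on LM4m replicate 1 at 2.19 and LM8m replicate 1 at 1.42, and between 0.66 and 1.17 on the others. Hippocampal subfield markers (Prox1, Wfs1, Neurod6, Fibcd1) were measured on every array at 4.86 to 8.71.

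At 4 months most cholesterol synthesis enzymes read higher in MT than in LM hippocampus, with the largest values at Fdps, Msmo1, Nsdhl, Sqle and Fdft1, and the transport gene Stard4 went with them. The differences ran from -0.29 to 0.93 on the log2 scale over the 17 measured enzymes, with a median of 0.31 and 12 of the 17 above 0, beside a median of -0.02 over all 18193 genes. The SREBP regulators had a median of 0.01, and the transport, storage, efflux and turnover genes one of -0.002. This last median depends on the probe set taken. Of 4 further probe sets of those genes brighter than the median probe set, 2 had the same sign as the brightest. The exceptions read Npc2, at 0.32 against -0.10, and Abcg1, at 0.20 against -0.17. None of the 29 members passed limma's test at an adjusted p under 0.05, and their smallest adjusted p was 0.852. Differences are MT minus LM as the sample labels name the arrays. In the study's own gene tables the arrays carry the reverse genotype names, so that signs here are opposite to those tables.

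In that comparison 0 of the 45037 probe sets passed the adjusted test (0%). At an unadjusted limma p under 0.05, 6 of the 17 enzymes were higher in MT4m (Sqle, Msmo1, Nsdhl, Fdps, Fdft1 and Idi1) and so was Stard4, which made 7 of 29 members, beside 1.36% of all genes. No member was lower at that limit, beside 4.38% of all genes. Both MT4m arrays stood above both LM4m arrays for 12 of the 29 members, 10 of them enzymes, beside 14.8% of all genes. They stood below both for Mvk and Abcg1, beside 22.9%. The second Abcg1 probe set read the other way without overlap, at 3.74 and 3.78 in LM4m and 3.86 and 4.05 in MT4m. The second Mvk probe set overlapped, at 3.35 and 3.06 in LM4m and 3.30 and 3.31 in MT4m.

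**Figure D1:**
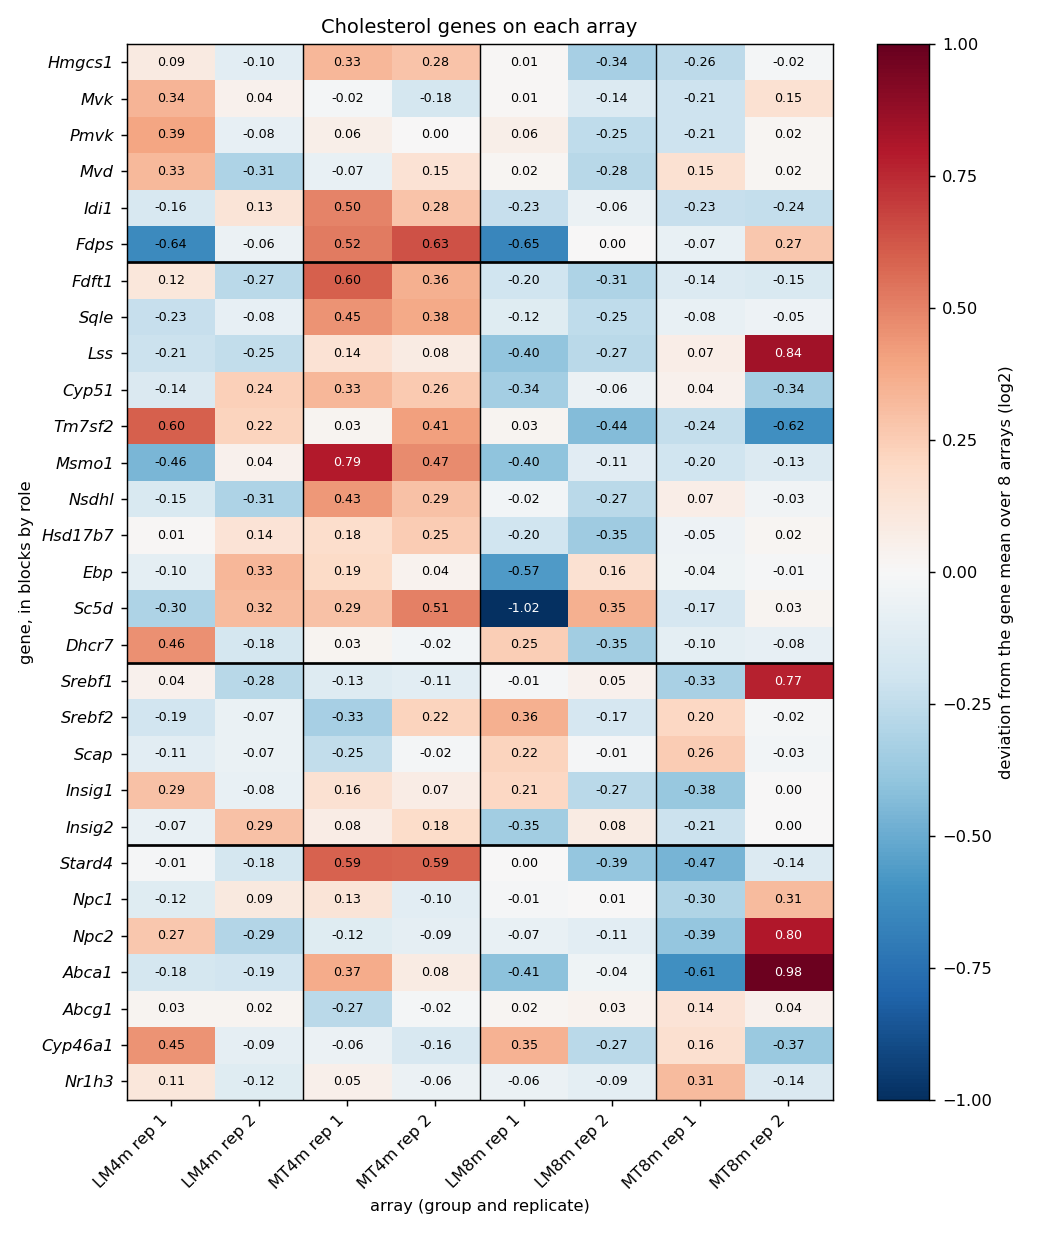
Deviation of each of the 29 measured members from its own mean over the 8 arrays (log2), with arrays in columns and genes in rows, blocked by horizontal lines into mevalonate and isoprenoid enzymes, squalene and sterol enzymes, SREBP regulators, and transport, storage, efflux and turnover genes. In each MT4m array 15 of the 17 enzymes lie above their mean, and on MT8m replicate 2 the deviation reaches 0.98 for Abca1.

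The early enzymes make mevalonate and turn it into isoprenoid diphosphates. Fdps, which makes farnesyl diphosphate, the branch point to sterols and to prenylated proteins, read 4.76 and 5.34 in LM4m, 5.92 and 6.03 in MT4m, 4.75 and 5.40 in LM8m, and 5.32 and 5.66 in MT8m. At 4 months both MT arrays were above both LM arrays, while the 2 littermate arrays of each age lay far apart. The lower array of each littermate pair was replicate 1, which had the larger Gapdh 3′ to 5′ difference. Over the 17 enzymes LM4m replicate 1 was the higher LM4m array for 9 and the lower for 8. The part of RNA quality was not tested. The difference of Fdps at 4 months was 0.93 ± 0.26 (SE), a 1.90-fold higher level, with an adjusted limma p of 0.944. It was 0.64 without LM4m replicate 1 and 1.22 without LM4m replicate 2. Idi1, the isomerase that supplies dimethylallyl diphosphate, read 6.38 and 6.66 in LM4m, 7.04 and 6.82 in MT4m, 6.31 and 6.48 in LM8m, and 6.31 and 6.30 in MT8m. The MT4m arrays were the highest of the 8. The difference of Idi1 at 4 months was 0.41 ± 0.15 (adjusted limma p 0.944). Its second probe set differed by 0.31 but overlapped, at 5.84 and 5.64 in LM4m and 6.37 and 5.72 in MT4m.

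Hmgcs1, the HMG-CoA synthase at the entry of the pathway, read 9.69 and 9.49 in LM4m, 9.93 and 9.88 in MT4m, 9.61 and 9.26 in LM8m, and 9.34 and 9.58 in MT8m. It too was highest on the MT4m arrays, by 0.31 ± 0.16 over LM4m (adjusted limma p 0.944). The mevalonate kinase Mvk went the other way, at 4.20 and 3.90 in LM4m against 3.84 and 3.68 in MT4m, a difference of -0.29 ± 0.17. The kinase Pmvk and the decarboxylase Mvd differed by -0.12 ± 0.19 and 0.03 ± 0.21 at 4 months, less than their SE. For Mvk, Pmvk and Mvd the highest of the 8 arrays was LM4m replicate 1, the array with the largest Gapdh 3′ to 5′ difference.

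The later enzymes turn farnesyl diphosphate into squalene, lanosterol and cholesterol. Fdft1, squalene synthase, read 8.07 and 7.69 in LM4m, 8.56 and 8.31 in MT4m, 7.76 and 7.65 in LM8m, and 7.82 and 7.80 in MT8m. Sqle, squalene epoxidase and a rate-limiting step after mevalonate, read 6.48 and 6.63 in LM4m, 7.16 and 7.10 in MT4m, 6.59 and 6.46 in LM8m, and 6.64 and 6.66 in MT8m. In both genes the MT4m arrays stood above every other array. At 4 months Fdft1 differed by 0.56 ± 0.16 (adjusted limma p 0.944) and Sqle by 0.57 ± 0.12 (adjusted limma p 0.852), the smallest p-value of the members in that comparison.

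Msmo1, the C4-methylsterol oxidase, read 7.32 and 7.83 in LM4m, 8.57 and 8.26 in MT4m, 7.38 and 7.67 in LM8m, and 7.58 and 7.65 in MT8m. Nsdhl, which works with it to remove the C4 methyl groups, read 5.54 and 5.39 in LM4m, 6.12 and 5.98 in MT4m, 5.67 and 5.42 in LM8m, and 5.76 and 5.66 in MT8m. The MT4m arrays of both genes were above the other 6. At 4 months the differences were 0.84 ± 0.20 for Msmo1, a 1.79-fold higher level, and 0.59 ± 0.14 for Nsdhl, each with an adjusted limma p of 0.858. Like Fdps, Msmo1 was lowest on LM4m replicate 1 and LM8m replicate 1, whereas Nsdhl was higher on replicate 1 in either littermate group. The Msmo1 difference was 0.59 without LM4m replicate 1 and 1.09 without LM4m replicate 2. Cyp51, the lanosterol demethylase, and Hsd17b7, the partner reductase of Nsdhl, were also without overlap at 4 months, with smaller differences of 0.25 ± 0.19 and 0.14 ± 0.13.

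The remaining sterol enzymes did not separate by genotype at 4 months. Sc5d, the sterol desaturase, differed by 0.39 ± 0.39, with LM8m replicate 1 lowest of all at 4.93. A second Sc5d probe set of similar brightness differed by 0.06 at 4 months. There LM8m replicate 2 was the lowest, at 4.75, and LM8m replicate 1 read 6.10, so the low LM8m array changed with the probe set. Ebp, the isomerase, differed by -0.004 ± 0.24, the reductase Dhcr7 by -0.14 ± 0.24 and the reductase Tm7sf2 by -0.19 ± 0.23, each within its SE.

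**Figure D2:**
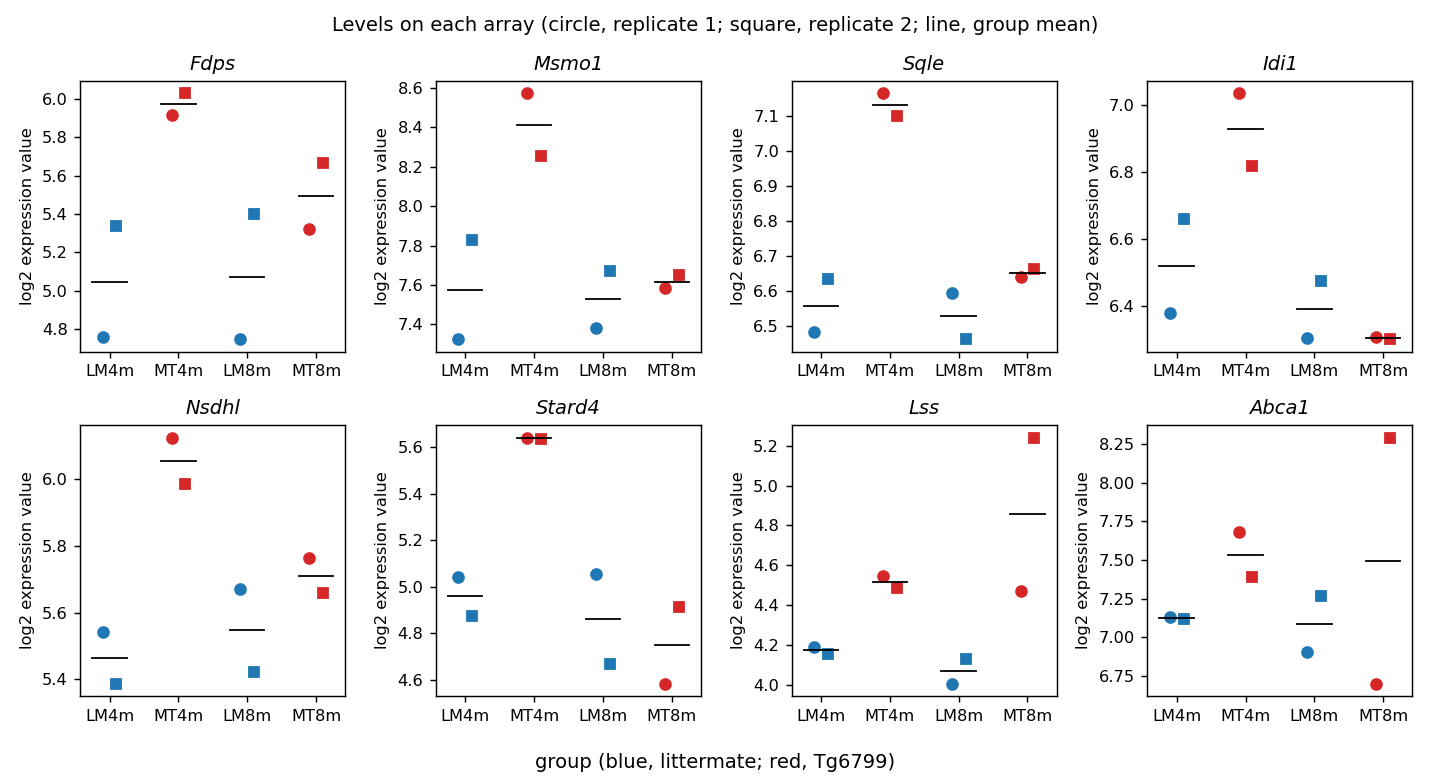
Log2 expression value (vertical axes, each with its own range) of 8 members on every array by group, littermates in blue and Tg6799 in red; a circle is the first replicate, a square the second, and the black line their mean. Fdps, Msmo1, Sqle, Idi1, Nsdhl and Stard4 are highest on the 2 MT4m arrays, while Lss and Abca1 are highest on MT8m replicate 2, at 5.24 and 8.29.

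Lss, lanosterol synthase, which closes the sterol rings, had a pattern of its own. It read 4.19 and 4.16 in LM4m, 4.55 and 4.49 in MT4m, 4.01 and 4.13 in LM8m, and 4.47 and 5.24 in MT8m. All 4 MT arrays were above all 4 LM arrays, and the highest value came from MT8m replicate 2. The difference was 0.34 ± 0.22 at 4 months and 0.79 ± 0.22 at 8 months, a 1.73-fold higher level with an adjusted limma p of 1.00. Without the library labelled MT8m replicate 1, a choice made on the outcome markers above and resting on a lone MT8m array assumed to vary like the other groups, Lss passed the test at 8 months (adjusted limma p 0.0410). A second Lss probe set of similar brightness did not show the difference, with 4.47 and 4.33 in LM8m and 4.58 and 4.28 in MT8m.

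At 4 months the regulators themselves differed little. Srebf2, the SREBP form that mainly drives cholesterol genes, read 4.36 and 4.49 in LM4m, 4.22 and 4.78 in MT4m, 4.91 and 4.39 in LM8m, and 4.76 and 4.53 in MT8m. The genotypes overlapped at each age, and the difference at 4 months was 0.07 ± 0.23. Scap, the escort, and the retention proteins Insig1 and Insig2 differed at 4 months by -0.04 ± 0.15, 0.01 ± 0.21 and 0.02 ± 0.19. Insig1, itself a well-known SREBP target, read 6.65 and 6.28 in LM4m against 6.52 and 6.43 in MT4m. Srebf1, which mainly drives fatty acid genes, was between 5.86 and 6.23 on 7 arrays and reached 6.96 on MT8m replicate 2. At 8 months Srebf1 differed by 0.21 ± 0.30, by 0.76 without the library labelled MT8m replicate 1 and by -0.34 without MT8m replicate 2. None of the 5 regulators separated MT4m from LM4m, beside 14.8% of all genes apart with MT4m higher and 22.9% with MT4m lower.

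**Figure D3:**
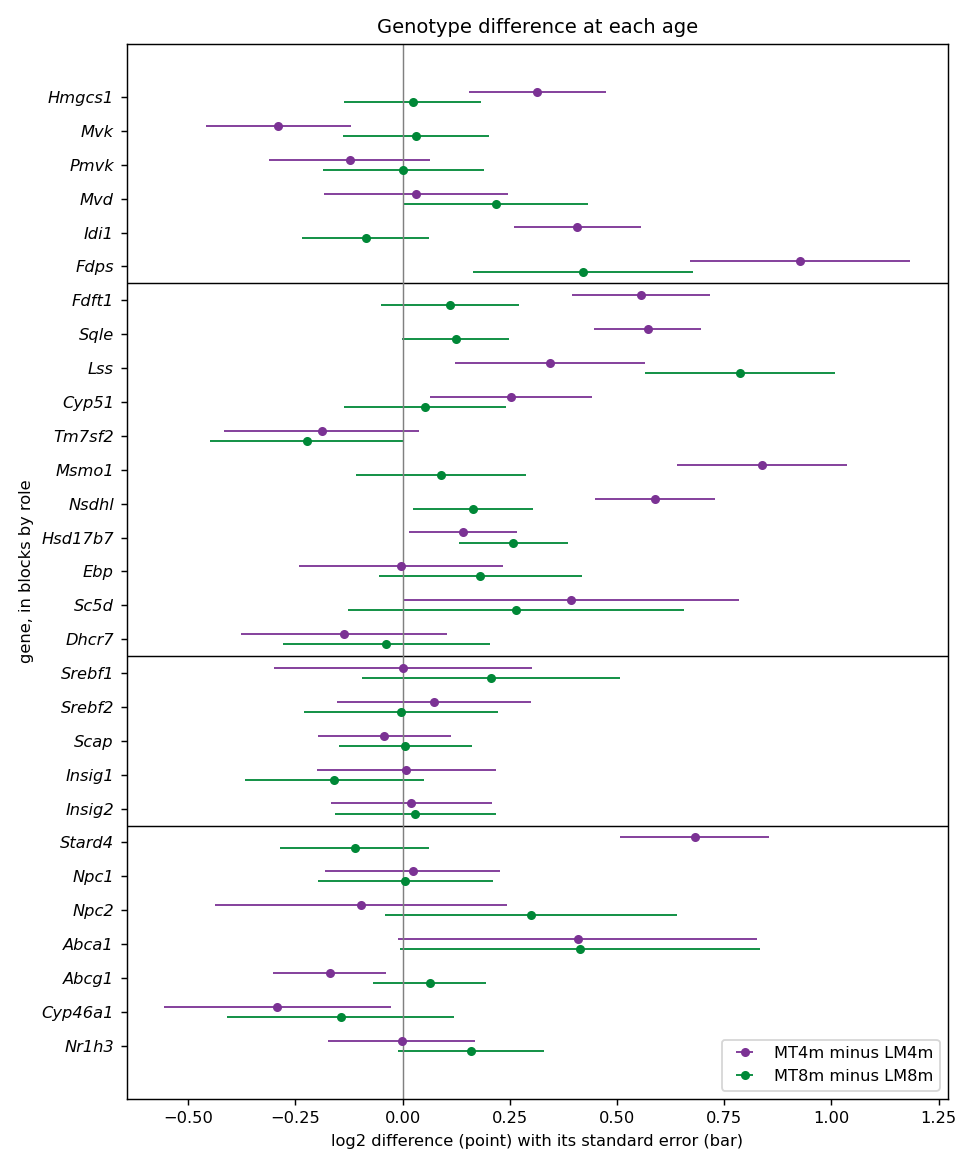
Log2 difference between Tg6799 and littermate arrays for the 29 members (point) with its standard error (bar), at 4 months in purple and at 8 months in green, with genes blocked by role. At 4 months Fdps lies at 0.93, Msmo1 at 0.84 and Stard4 at 0.68, while the 5 regulators lie between -0.04 and 0.07.

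Among the transport genes Stard4, a carrier of cholesterol between membranes that SREBP also drives, stood with the enzymes. It read 5.04 and 4.87 in LM4m, 5.64 and 5.64 in MT4m, 5.05 and 4.67 in LM8m, and 4.58 and 4.91 in MT8m. The MT4m arrays were the highest of the 8, and at 8 months the genotypes overlapped. The difference was 0.68 ± 0.17 at 4 months, a 1.60-fold higher level (adjusted limma p 0.902), and -0.11 ± 0.17 at 8 months. Its second probe set above the median brightness differed by 0.56 at 4 months and by 0.36 at 8 months. On that probe set the genotypes did not overlap at 8 months, at 4.18 and 4.42 in LM8m and 4.55 and 4.77 in MT8m.

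Abca1, which loads cholesterol onto lipoprotein, read 7.13 and 7.12 in LM4m, 7.68 and 7.39 in MT4m, 6.90 and 7.27 in LM8m, and 6.70 and 8.29 in MT8m. The lowest and the highest of the 8 values were the 2 MT8m arrays, so that the difference at 8 months, 0.41 ± 0.42, was no larger than its SE; it was -0.38 without MT8m replicate 2 and 1.21 without the library labelled MT8m replicate 1. Npc2, which hands cholesterol from the lysosome lumen to NPC1, split in the same way, at 7.53 and 8.72 in MT8m, and Npc1 read 5.41 and 6.03 there. Abcg1, the partner transporter of Abca1, stayed between 6.57 and 6.98 on all arrays. Cyp46a1, the neuronal 24-hydroxylase that clears brain cholesterol, read 7.44 and 6.91 in LM4m, 6.93 and 6.83 in MT4m, 7.34 and 6.72 in LM8m, and 7.16 and 6.62 in MT8m, so that the genotypes overlapped at both ages. Nr1h3, the liver X receptor alpha that senses oxysterols, was dim, between 2.17 and 2.62, with a mean over the 8 arrays of 2.31 beside a median of 2.48 over all probe sets.

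At 8 months the enzymes differed less between genotypes. Their median difference was 0.11, with 14 of the 17 above 0, and 0.06 over the 29 members, beside 0.002 over all genes. At an unadjusted limma p under 0.05 only Lss was higher, 1 of 29 beside 1.29% of all genes, and no member was lower, beside 2.25%. Both MT8m arrays were above both LM8m arrays for 5 of the 17 enzymes, Mvd, Fdft1, Sqle, Lss and Hsd17b7, beside 13.3% of all genes. The adjusted test passed 9 probe sets (0.0200%), none of them a member. Without the library labelled MT8m replicate 1, 4 of the 29 members were higher at the unadjusted limit beside 4.15% of all genes. These were Lss, Srebf1, Npc2 and Abca1. Leaving out LM8m replicate 2 put 4 of the 17 enzymes at that limit, beside 1.75% of all genes, namely Fdps, Lss, Ebp and Sc5d.

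Averaged over both ages, 6 enzymes and Stard4 were higher in MT at an unadjusted limma p under 0.05, 7 of 29 members beside 2.08% of all genes, and none was lower, beside 4.64%. The enzymes were Sqle, Nsdhl, Fdps, Lss, Msmo1 and Fdft1. All 4 MT arrays stood above all 4 LM arrays for Sqle and Lss, beside 1.28% of all genes; for Sqle the nearest values were 6.64 in MT8m and 6.63 in LM4m. No member was among the 27 probe sets that passed the adjusted test (0.0600%), and the smallest adjusted p of a member was 0.689, that of Sqle. Without the library labelled MT8m replicate 1, Lss passed (adjusted limma p 0.0312), and 10 of the 29 members were higher at the unadjusted limit beside 3.92% of all genes.

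**Figure D4:**
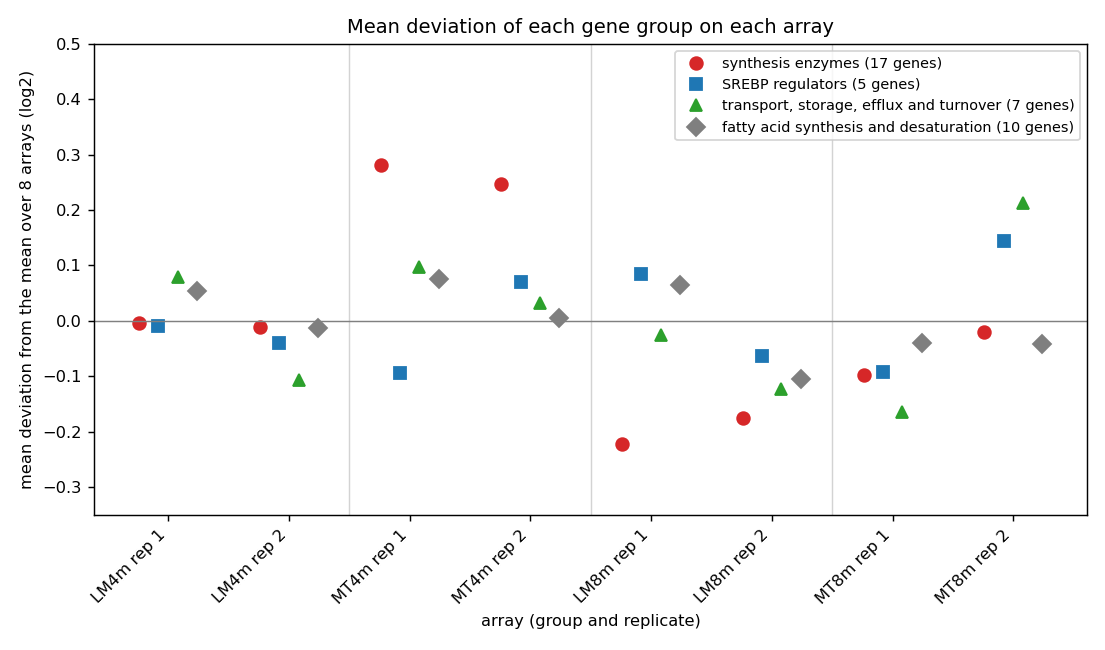
Mean deviation from the mean over 8 arrays (log2, vertical axis) of the 17 synthesis enzymes, 5 SREBP regulators, 7 transport, storage, efflux and turnover genes and 10 fatty acid genes on each array (horizontal axis, points shifted sideways for view). The enzymes are at 0.28 and 0.25 on the MT4m arrays and at or below 0 on the other 6.

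The mean deviation of the 17 enzymes from their own mean was 0.28 and 0.25 on the MT4m arrays, -0.004 and -0.01 in LM4m, -0.22 and -0.17 in LM8m, and -0.10 and -0.02 in MT8m. The MT4m arrays were apart from the rest, and LM8m was lowest. The 5 regulators ranged from -0.09 to 0.15 and the 7 transport genes from -0.17 to 0.21, in each case highest on MT8m replicate 2. The enzymes did not vary alike within a group: the median gap between the 2 arrays was 0.38 in LM4m and 0.29 in LM8m, against 0.14 in MT4m and 0.13 in MT8m.

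With age the synthesis enzymes read lower in Tg6799 mice. From MT4m to MT8m their median difference was -0.45, with 14 of the 17 below 0, beside 0.004 over all genes. Stard4 was 1.85-fold lower, by -0.89 ± 0.17 (adjusted limma p 0.747). Msmo1 differed by -0.80 ± 0.20 (adjusted limma p 0.798), Idi1 by -0.62 ± 0.15 (adjusted limma p 0.777), Fdft1 by -0.62 ± 0.16 and Sqle by -0.48 ± 0.12 (adjusted limma p 0.826 each). No member passed the adjusted test, nor did any of the 45037 probe sets (0%).

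At an unadjusted limma p under 0.05, 9 of 29 members were lower in MT8m than in MT4m, Stard4 and the enzymes Idi1, Msmo1, Fdft1, Sqle, Tm7sf2, Hmgcs1, Nsdhl and Cyp51, beside 2.80% of all genes. None was higher, beside 2.98%. Both MT8m arrays lay below both MT4m arrays for 13 of the 17 enzymes, beside 17.4% of all genes; Mvk, Pmvk, Mvd and Lss were the exceptions. Insig1 and Insig2 were also without overlap, at differences of -0.30 ± 0.21 and -0.23 ± 0.19. When the library labelled MT8m replicate 1 was left out, the count of enzymes lower was 6 of 17, beside 3.38% of all genes, and 4 of the 29 members, Lss, Srebf1, Npc2 and Abca1, were higher, beside 4.72%. The count of enzymes lower was 5 without MT8m replicate 2, beside 4.06% of all genes. It was 5 without MT4m replicate 1, beside 1.39%, and 4 without MT4m replicate 2, beside 2.40%.

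**Figure D5:**
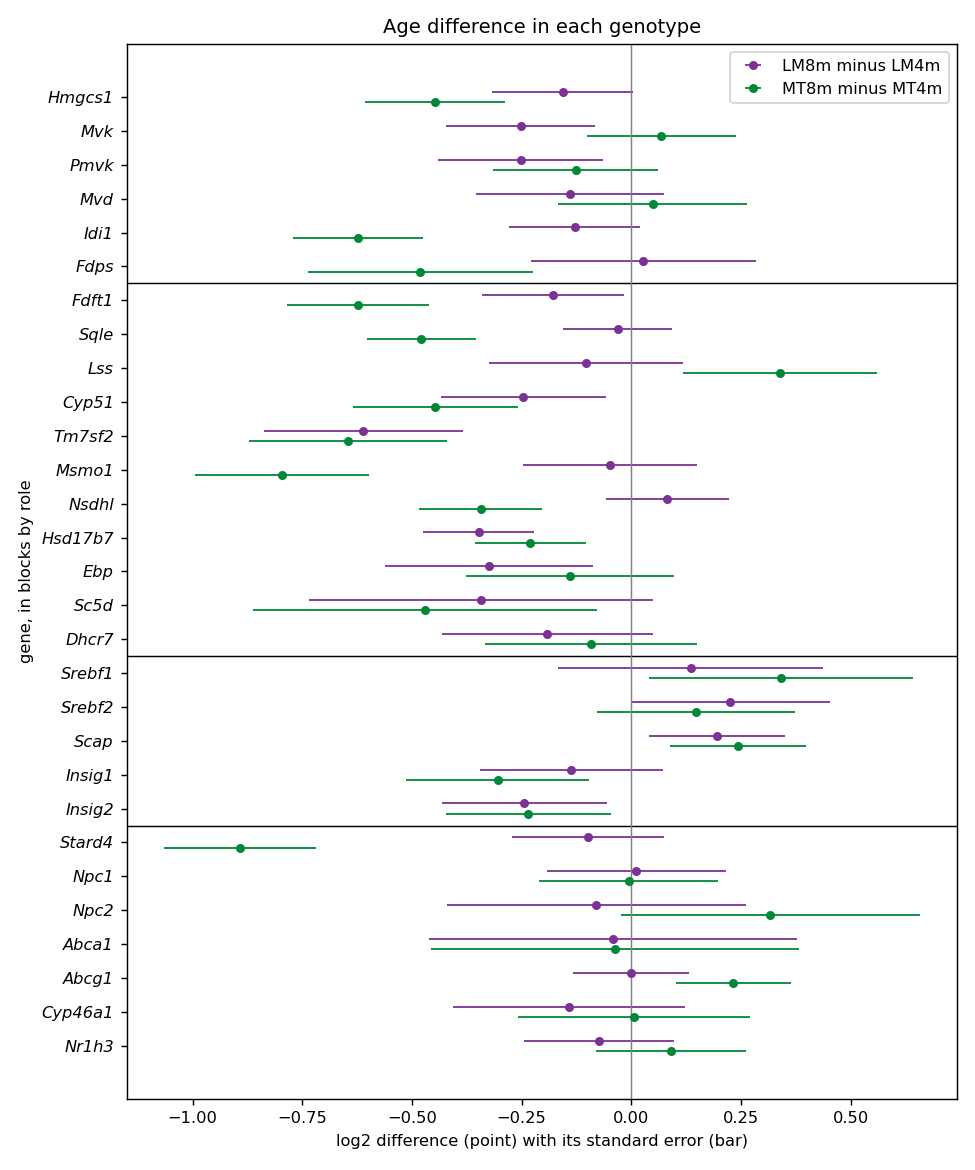
Log2 difference between 8 and 4 months for the 29 members (point) with its standard error (bar), in littermates in purple and in Tg6799 mice in green, with genes blocked by role. Stard4 lies at -0.89 and Msmo1 at -0.80 in Tg6799 mice, against -0.10 and -0.05 in littermates.

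In littermates the age differences were smaller. The median over the enzymes was -0.18, with 15 of the 17 below 0, beside -0.02 over all genes. At the unadjusted limit Hsd17b7, at -0.35 ± 0.13, and Tm7sf2, at -0.61 ± 0.23, were lower, 2 of 29 beside 2.45% of all genes, and no member was higher, beside 1.03%; the count was 1 without LM4m replicate 1, beside 2.47%. Both LM8m arrays were below both LM4m arrays for Mvk, Lss, Tm7sf2 and Hsd17b7, 4 of 17 enzymes beside 17.2% of all genes. Tm7sf2, the C14 sterol reductase, read 4.50 and 4.12 in LM4m, 3.93 and 4.31 in MT4m, 3.93 and 3.47 in LM8m, and 3.67 and 3.29 in MT8m, so that it was lower at 8 months in either genotype. Averaged over genotypes it differed by -0.63 ± 0.16 (adjusted limma p 0.587). In that average 9 of 29 members were lower at the unadjusted limit, beside 3.98% of all genes, and none was higher, beside 2.49%; Stard4 had the smallest adjusted p, 0.581. The count of enzymes lower, 8 with all arrays, was 4 without MT4m replicate 1, beside 2.43% of all genes. With the library labelled MT8m replicate 1 dropped, 8 members were lower, beside 4.47%, and 4 higher, beside 3.66%.

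Whether the genotype difference changed between the ages was tested as an interaction, the difference at 8 months minus that at 4 months. Stard4 had -0.79 ± 0.24, Msmo1 -0.75 ± 0.28, Idi1 -0.49 ± 0.21 and Sqle -0.45 ± 0.18, each with an adjusted limma p of 1.00, so the change was not established for any member. These were 4 of 29 members lower at an unadjusted limma p under 0.05, beside 0.863% of all genes, and none was higher, beside 1.72%. The count turned on single arrays. With the library labelled MT8m replicate 1 dropped, only Stard4 was lower, 1 of 29 members beside 1.49% of all genes, and 4 members, Lss, Srebf1, Npc2 and Abca1, were higher, beside 3.42%. Of the enzymes, 3 were lower with all arrays and 0 without MT4m replicate 1, beside 0.676% of all genes. The enzyme count was 1 without LM4m replicate 1, beside 1.14%, and 1 without MT8m replicate 2, beside 1.75%. It was 2 without MT4m replicate 2, beside 0.720%, and 2 without LM8m replicate 2, beside 0.709%. Lss ran the other way, at 0.44 ± 0.31. On the second Stard4 probe set the genotype difference was 0.56 at 4 months and 0.36 at 8 months, a smaller change than on the brightest.

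The probe set that stands for a gene mattered for some members. For Hmgcs1 the brightest probe set gave the smallest difference at 4 months among the 4 above the median, 0.31, against 0.59, 0.64 and 1.11 in the other 3. Of 12 further probe sets of 9 enzymes that were brighter than the median probe set, 11 had the same sign as the brightest at 4 months, the exception being Mvk. From MT4m to MT8m 11 of the 12 had the same sign, with Mvd the exception. The other lists agreed less at 4 months. For the regulators 1 of 3 such probe sets had the same sign, the exceptions being of Srebf2 and Insig2. For the transport, storage, efflux and turnover genes it was 2 of 4, the exceptions being of Npc2 and Abcg1. From MT4m to MT8m the sign was kept by 2 of these 3 and 3 of these 4. Fdft1 and Hsd17b7 were read by probe sets with the suffix _x_at, which Affymetrix gives where probes also match other sequences. The second Fdft1 probe set differed by 0.45 at 4 months against 0.56. For Hsd17b7 the further probe sets above the median differed by 0.56 and 0.23 at 4 months against 0.14. For Fdps and Msmo1 the only other probe set was dim, below the median, and carried no difference at 4 months.

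Genes next to this pathway were read in the same way. Of 10 genes of fatty acid synthesis and desaturation none was higher in MT4m at the unadjusted limit, beside 1.36% of all genes. Fads2, the delta-6 desaturase, was lower, at -0.41 ± 0.16, beside 4.38%, with a median over the list of -0.02. Both MT4m arrays were above both LM4m arrays for 3 of the 10, Fasn, Scd2 and Me1, beside 14.8% of all genes. They were below both for 2, beside 22.9%. Of 17 other genes that handle sterols and isoprenoids none was higher. Pltp, the phospholipid transfer protein, was lower by -0.54 ± 0.20, with a median of -0.10. In that list the MT4m arrays were above both LM4m arrays for 2 genes and below both for 5. Fads2 and Pltp each had an adjusted limma p of 0.944.

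Marker genes of other cell types also separated these arrays. All 8 choroid plexus markers were above their own mean on each LM array and below it on each MT array, with a mean deviation of 0.69 to 1.96 in LM and of -1.31 to -1.03 in MT and summed levels of 46.2 to 56.4 against 30.3 to 32.5. Of the 7 measured microglia markers, all were above their mean on the MT4m arrays and on MT8m replicate 2, with mean deviations of 0.69, 0.47 and 1.46, against -0.64 to -0.33 on the other 5. The summed levels were 58.4 on MT8m replicate 2, 51.4 and 53.0 in MT4m and 43.7 to 45.9 on the rest. Astrocyte markers ranged from -0.29 on MT8m replicate 1 to 0.46 on MT8m replicate 2, the 2 arrays between which Abca1, Npc2, Npc1 and Srebf1 were split, and were at 0.03 and -0.01 in MT4m. Oligodendrocyte markers stayed between -0.15 and 0.13, and the 2 lowest of these values were those of MT4m. The single markers were mixed. Mean levels of Mbp and Mal were higher in MT4m than in LM4m, and those of Mog, Mag, Mobp, Cnp and Opalin lower. Levels on this scale do not reach 0, so presence on an array cannot be read from them. Col1a1 and Pecam1 were below the median of 2.48 over all probe sets on every array, at 1.99 to 2.36 and 1.70 to 2.09. Cldn2 was below it on the MT arrays, at 2.23 to 2.47. The part of these cell types in the values of the cholesterol genes was not tested.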

How the data were processed

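Total RNA of bulk hippocampus was hybridised to Affymetrix GeneChip mouse genome arrays. The authors normalised the 8 arrays together by RMA with the R package affy and deposited log2 expression values, which were used as given. Their median over probe sets, 2.48, is low for RMA, and whether an offset was subtracted is not known, so folds may differ from those on the usual scale. Of 45101 probe sets, 64 controls were left out; 34945 of the other 45037 carried 1 gene symbol, 932 several and 9160 none in the platform annotation, updated through Entrez IDs in RefSeq GRCm38.p6 (34741 matched). Arrays were grouped by the genotype and age in their labels. All probe sets were fitted with limma 3.58.1 in R 4.3.3 (lmFit and eBayes, 4 group means, 4 residual degrees of freedom), with two-sided tests and Benjamini-Hochberg adjustment over 45037 probe sets. The fit was tested on simulated data. Arrays limit precision by their number, 2 a group. The members and lists were chosen with earlier results of these data known. All 32 members are named, with full statistics for those with the 4 smallest p-values of a contrast and for Fdps, Msmo1 and Stard4. Alternatives tried were leaving out dim probe sets, normalising again by cyclic loess, another prior, 1 probe set or the mean of probe sets per gene, 2 groups alone, an additive model, blocking on the title numbers, and dropping each array in turn.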

Additional observations from a re-analysis of the deposited data

How the results depend on the processing

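Over 3038 values of single members under the alternatives, 3036 kept their side of the adjusted limma threshold and 0 reversed, signs of values that never passed not being counted; the exceptions were Lss at 8 months and averaged over ages without MT8m replicate 1, where 1 member passed in place of 0. Elsewhere the smallest adjusted p of a member over the alternatives was 0.315 for genotype at 4 months (Msmo1 without LM4m replicate 2), and 0.279 for age in mutants and 0.169 for age averaged over genotypes, in the crossed block.

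The median difference of the enzymes was 0.19 for genotype at 4 months with the mean over all probe sets of a gene, and -0.093 for age in littermates, -0.23 for age in mutants, -0.19 for age averaged over genotypes and -0.17 for the interaction. With cyclic loess it was -0.14 for age in littermates and -0.19 for the interaction. Leaving out each array in turn gave 0.27 to 0.33 for genotype at 4 months, 0.058 to 0.16 for genotype at 8 months, 0.17 to 0.23 for genotype averaged over ages, -0.18 to -0.10 for age in littermates, -0.45 to -0.29 for age in mutants, -0.30 to -0.24 for age averaged over genotypes and -0.22 to -0.0091 for interaction. The cause of these shifts was not tested.

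The gap between the 2 arrays of a group correlated between the ages, over probe sets, at 0.24 in littermates and -0.17 in mutants. The title numbers are shared between ages within a genotype, and the labels do not say what they stand for. With them as a replicate block, 10 enzymes in place of 8 were lower with age in mutants at an unadjusted p under 0.05, beside 3.14% of all genes in place of 2.80%, and 0 members passed the adjusted test. Crossing the numbers of MT8m, tried after the data were seen, also gave 10, beside 4.24%, and 0. Leaving out an array gave 4 to 7 enzymes higher at 4 months (6 with all arrays), 4 without LM4m replicate 1 (beside 1.08% of all genes) or MT4m replicate 1 (0.951%), and 4 to 8 lower with age in mutants. Differences of the size of the SEs given, with 2 arrays a group, could not be told from 0.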
